A study of Homo sapiens with 6 samples.

Results

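The lysyl oxidase family comprises the 5 genes LOX, LOXL1, LOXL2, LOXL3 and LOXL4, which were picked by symbol from the 25737 gene entries counted in every library. Each of the 5 symbols had 1 entry. The genes were followed in human A549 cells, a line derived from a lung carcinoma with an epithelial origin, and in BEAS-2B cells, an immortalized line of bronchial epithelium, both labelled wild type. In each line a control group without treatment was set beside groups exposed for 48 h to 1 or 5 ng/mL of transforming growth factor beta 1 (TGF-β1), so that the comparison asked how a fibrosis-inducing cytokine altered epithelial gene expression. Treated cells were kept in RPMI1640 with 1% fetal bovine serum, against 10% for routine growth, and the serum level of the control groups was not given in the sources used here. Messenger RNA was counted at its 3′ end (QuantSeq 3′ FWD kit). There was 1 library per condition, 6 in all, so a single condition could not be tested, and no test of a dose effect shared by the lines was made. Intervals in brackets are exact 95% counting intervals, which cover counting error only and not the spread between cultures.

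Lysyl oxidases are secreted copper enzymes that oxidize the amino group of lysine side chains in collagen and elastin. The aldehydes formed react with neighboring chains and produce the covalent cross-links that stiffen the matrix of fibrotic lung. LOX and LOXL1 are made with a propeptide that BMP1 and related proteases remove, whereas LOXL2, LOXL3 and LOXL4 carry scavenger receptor domains ahead of the catalytic domain.

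All members share a copper-binding stretch in the catalytic domain, which is shown here because it is what defines the family. The coding bases of this stretch were read from the GENCODE transcripts on GRCh38, and capitals mark the 4 histidine codons. LOXL2 also had 1 match to the stretch, and its sequence is not printed here.
LOX: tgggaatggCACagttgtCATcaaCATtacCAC
LOXL1: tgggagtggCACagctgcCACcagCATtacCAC
LOXL3: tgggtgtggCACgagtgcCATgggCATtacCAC
LOXL4: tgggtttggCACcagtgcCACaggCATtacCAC
LOX and LOXL1 shared 28 of these 33 bases, and over all pairs of the 5 members between 22 and 29 bases were equal. LOX and LOXL1 were identical at 41.7% of 564 aligned columns, and LOXL2, LOXL3 and LOXL4 at 54.9% to 55.3% of 740 to 762 columns. Between these groups 202 to 258 columns were aligned, so those identities are not ranked against the rest. No stretch of 50 bases was shared between the transcripts of any pair, so a read of that length has no identical copy in another member.

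The promoters of LOX and LOXL1 are shown because these members separated the cell lines most widely. They come from RefSeq (GRCh38.p14), each running from 250 bases before to 50 bases after a transcript start, and for LOX the window is 1 of its 3 entries. Capitals mark CAGAC or its reverse complement GTCTG, the short element that SMAD proteins can bind.
LOX promoter, chr5:122078210-122078509, minus strand: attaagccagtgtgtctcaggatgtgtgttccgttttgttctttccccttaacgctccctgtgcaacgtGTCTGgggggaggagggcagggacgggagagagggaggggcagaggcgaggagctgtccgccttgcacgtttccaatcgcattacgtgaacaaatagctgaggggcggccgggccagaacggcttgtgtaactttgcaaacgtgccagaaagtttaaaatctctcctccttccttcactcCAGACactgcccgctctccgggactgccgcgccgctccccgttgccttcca
LOXL1 promoter, chr15:73926212-73926511, plus strand: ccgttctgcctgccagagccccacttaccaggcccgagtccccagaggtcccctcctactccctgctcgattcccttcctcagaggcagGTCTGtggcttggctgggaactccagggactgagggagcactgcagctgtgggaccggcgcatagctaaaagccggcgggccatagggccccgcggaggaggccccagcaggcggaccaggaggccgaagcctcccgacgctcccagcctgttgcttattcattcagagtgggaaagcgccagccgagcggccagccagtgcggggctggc
LOX had 2 such matches and LOXL1 had 1, whereas the windows of LOXL3 (1 of its 2 entries) and LOXL4 had none. That of LOXL2 was not analysed here. On either strand, 45.0% of 27305 human promoter windows of the same length hold this element. The E-box CAGGTG, a sequence that SNAI and ZEB repressors bind, was found once in the LOXL4 window and not in those of LOX, LOXL1 or LOXL3, and 20.6% of all windows hold it. These matches describe letters only.

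The libraries held between 4120624 and 7841350 counts, the deepest being A549 at 1 ng/mL. Scaled counts below are counts divided by TMM factors over the 6 libraries. A differentially expressed gene (DEG) had a fold change of at least 2 in either direction and a normalized data (ND) value, log2(scaled count + 1), of at least 7 in either library compared, which is a scaled count of 127. Of 5 established TGF-β1 targets, 4 of the 4 reaching this ND value in A549 and 5 of 5 in BEAS-2B were upregulated at 5 ng/mL. Among all entries reaching it, 16.1% were upregulated in A549 and 7.33% in BEAS-2B. The other target, SMAD7, stayed under it in A549 and was at 4.31 times its control level (2.77 to 6.96). Of the epithelial markers, EPCAM had 0 counts and CDH1 between 0 and 2 counts in all BEAS-2B libraries, while KRT8 and KRT18 were counted throughout. The summed level of the 5 epithelial markers was 1890 to 5172 CPM (counts scaled to a common library total) in A549 and 201 to 432 CPM in BEAS-2B. The endothelial markers VWF, CDH5 and KDR had 0 counts in all libraries and PECAM1 at most 4. Of the leukocyte markers, CD3E had 0 counts throughout, PTPRC at most 4, and CD14 had 57, 24 and 14 counts in A549 and 24, 3 and 2 in BEAS-2B at 0, 1 and 5 ng/mL. In these bulk samples, fewer cells of a type and less RNA per cell cannot be told apart.

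LOXL2 and LOXL1 carried most of the family's reads in BEAS-2B, and LOXL2 carried most of them in A549. The summed counts of the 5 members were 507, 1096 and 846 in A549 at 0, 1 and 5 ng/mL, and 4548, 4020 and 3651 in BEAS-2B. On the scaled level these sums were 587, 753 and 768 in A549 and 5073, 4523 and 4599 in BEAS-2B. BEAS-2B was therefore higher at every dose, by 8.64-fold (7.88 to 9.48) in the control groups and 5.99-fold (5.56 to 6.46) at 5 ng/mL. With 3′ counting a transcript gives about 1 read position whatever its length, so counts of different members were set side by side without division by length.

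**Figure D1:**
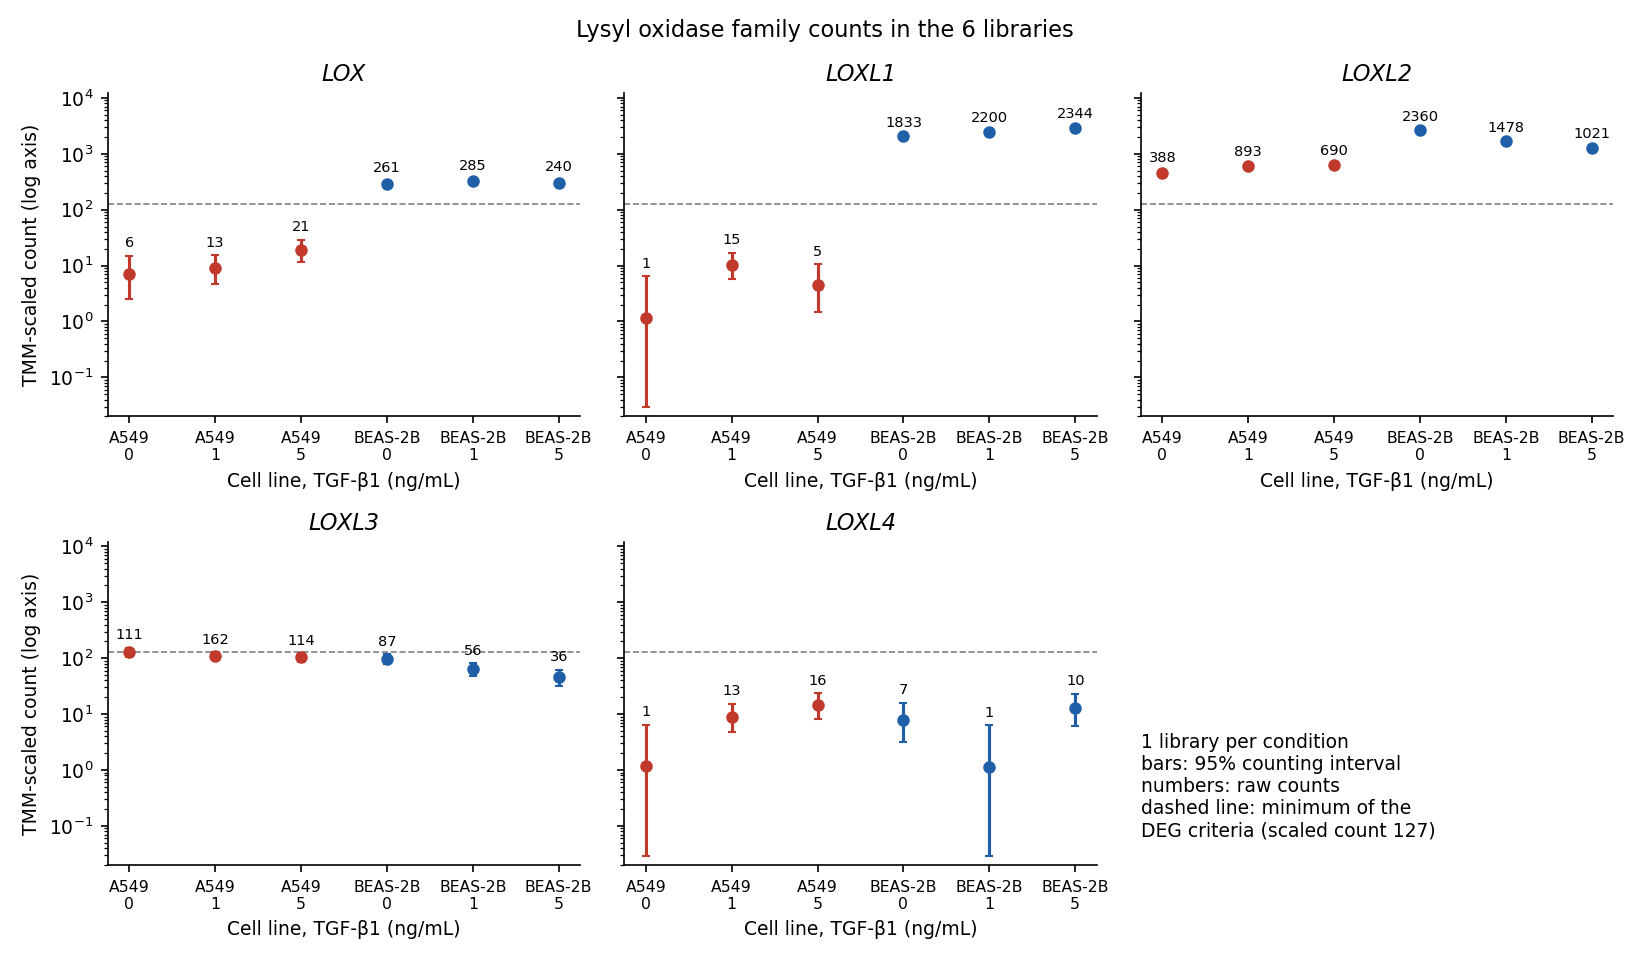
TMM-scaled counts (log axis) of each member in the 6 libraries, by cell line and TGF-β1 dose, with 95% counting intervals, raw counts above the points and a dashed line at the scaled count of 127. LOX and LOXL1 lie below 20 in all A549 libraries and at 291 or more in all BEAS-2B libraries.

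LOXL2, which oxidizes collagen IV and fibrillar collagens and is also found in the nucleus, was higher than control in A549 and lower than control in BEAS-2B. Its counts were 388, 893 and 690 in A549 at 0, 1 and 5 ng/mL, which are scaled counts of 450, 614 and 626. In BEAS-2B its counts were 2360, 1478 and 1021, or 2632, 1663 and 1286 after scaling. Every BEAS-2B library was above every A549 library, yet the gap narrowed from 5.86-fold (5.26 to 6.54) without treatment to 2.05-fold (1.86 to 2.27) at 5 ng/mL.

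In BEAS-2B, LOXL2 was at 0.632 times its control level (0.592 to 0.675) at 1 ng/mL and at 0.489 times (0.454 to 0.526) at 5 ng/mL. The step from 1 to 5 ng/mL was itself 0.773-fold (0.713 to 0.838), beyond counting error. At 5 ng/mL the gene was 2.05-fold lower and was the only member to meet the DEG criteria in any treated group. Among the entries reaching the minimum in that comparison, 11.6% were DEGs downward and 7.33% upward, so 1 downregulated member of the 3 that reached the minimum is read against that background. The fold lay close to the limit, and LOXL2 no longer passed it with upper quartile factors (log2 FC -0.97) or when scaled to proteasome genes (log2 FC -0.94), the latter added after seeing the data.

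In A549, LOXL2 was at 1.36 times its control level (1.21 to 1.54) at 1 ng/mL and at 1.39 times (1.23 to 1.58) at 5 ng/mL, with no difference between doses beyond counting error (1.02-fold, 0.923 to 1.13). These values were higher than counting error allows but did not meet the DEG criteria. They also changed when the trend over transcript GC content was taken out, a step added once the data had been seen. The log2 FC of LOXL2 then went from 0.45 to 0.018 at 1 ng/mL and from 0.48 to 0 at 5 ng/mL. The 0 means that LOXL2 equaled the median of entries with like GC content. In BEAS-2B the same step left log2 FC of -0.69 and -1.09, beside -0.66 and -1.03 without it. Whether a bias of composition or a response shared by such entries made the trend was not tested. The difference of the log2 ratios, BEAS-2B minus A549, was -1.11 (-1.31 to -0.915) at 1 ng/mL and -1.51 (-1.72 to -1.30) at 5 ng/mL.

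**Figure D2:**
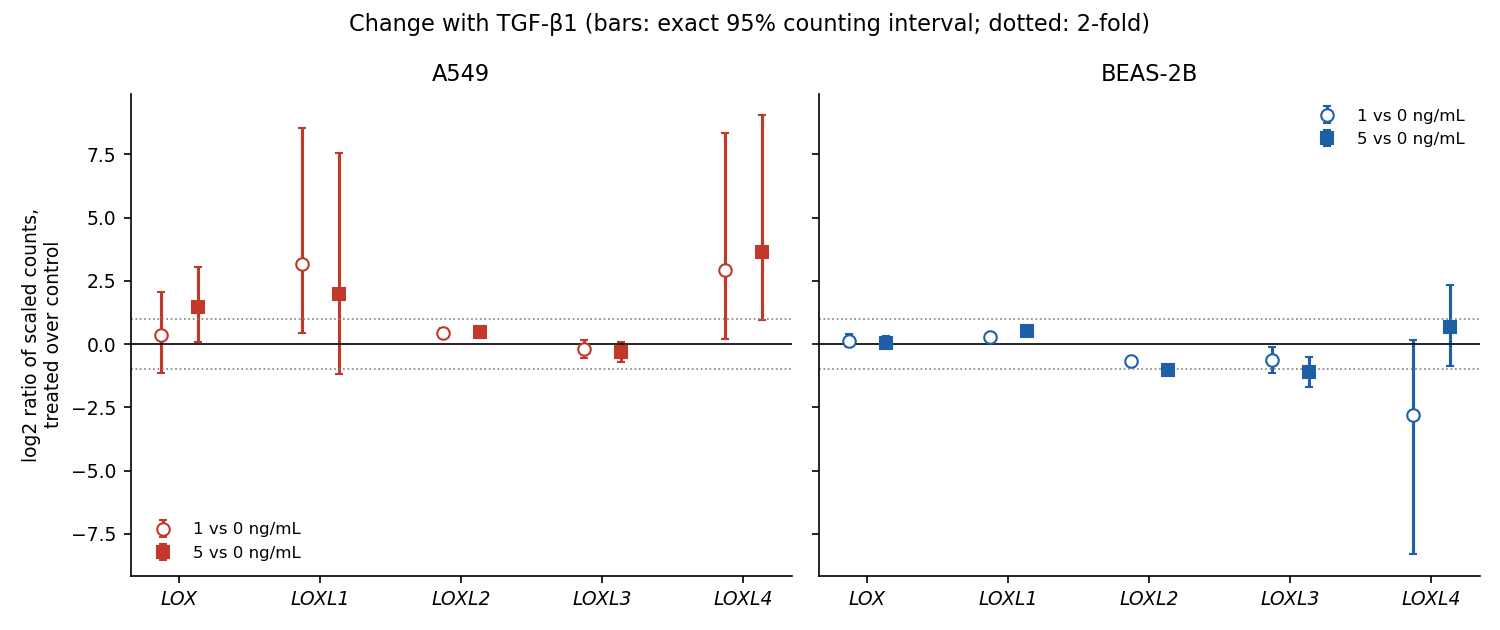
log2 ratio of scaled counts of TGF-β1-treated over control groups for each member in A549 and BEAS-2B, with exact 95% counting intervals (open circles 1 ng/mL, filled squares 5 ng/mL, dotted lines 2-fold). LOXL2 lies above 0 in A549 and below 0 in BEAS-2B at both doses, and the widest intervals belong to LOXL1 and LOXL4, with as few as 1 count in a library.

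LOXL1, the member most closely tied to elastin and the elastic fiber, was far higher in BEAS-2B at every dose. It had 1833, 2200 and 2344 counts in BEAS-2B at 0, 1 and 5 ng/mL against 1, 15 and 5 counts in A549. The scaled counts were 2045, 2476 and 2952 in BEAS-2B and 1.16, 10.3 and 4.54 in A549. The control groups differed by a ratio of 1765, with a counting interval of 316 to 69737 that is wide because A549 had 1 count.

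In BEAS-2B, LOXL1 reached 1.21 times (1.14 to 1.29) and 1.44 times (1.36 to 1.54) its control level at 1 and 5 ng/mL, and the step between the doses was 1.19-fold (1.12 to 1.26). Each value exceeded counting error, and none reached the 2-fold limit. The log2 FC at 5 ng/mL was 0.53 and became 0.33 after the GC trend was removed. In A549 the ratio was 8.89 (1.37 to 374) at 1 ng/mL and 3.92 (0.438 to 185) at 5 ng/mL, all on 15 counts or fewer. The summed level of the 6 fibroblast markers DCN, LUM, PDGFRA, PDGFRB, COL1A2 and COL3A1 moved with these few reads, at 7.48, 66.3 and 18.8 CPM in A549 at 0, 1 and 5 ng/mL. Most of the sum at 1 ng/mL was COL1A2, with 5, 343 and 54 counts in A549, which is also counted among the fibrillar collagens below. In BEAS-2B most of the sum was PDGFRB, with 118, 178 and 160 counts. In A549 all 6 had more than 3 counts at 1 ng/mL, and PDGFRB had 1 count at 5 ng/mL. The summed level in BEAS-2B ranged from 34.1 to 68.7 CPM. The part of these markers in the LOXL1 counts of A549 was not tested.

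Because LOXL1 and LOXL2 went different ways in BEAS-2B, the leading member changed. LOXL2 made up 51.9% of the family's counts (50.4 to 53.4) in the BEAS-2B control group, 36.8% (35.3 to 38.3) at 1 ng/mL and 28.0% (26.5 to 29.5) at 5 ng/mL. LOXL1 made up 40.3% (38.9 to 41.7), 54.7% (53.2 to 56.3) and 64.2% (62.6 to 65.8). Ranked among all entries of each library, LOXL1 went from place 373 to 305 and 237 while LOXL2 went from 258 to 501 and 702. The sum of the family altered less, at 0.892 times (0.854 to 0.931) and 0.907 times (0.868 to 0.947) the control level. In A549, LOXL2 held 76.5% (72.6 to 80.2), 81.5% (79.0 to 83.7) and 81.6% (78.8 to 84.1), and the sum was at 1.28 times (1.15 to 1.43) and 1.31 times (1.17 to 1.46) the control level.

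**Figure D3:**
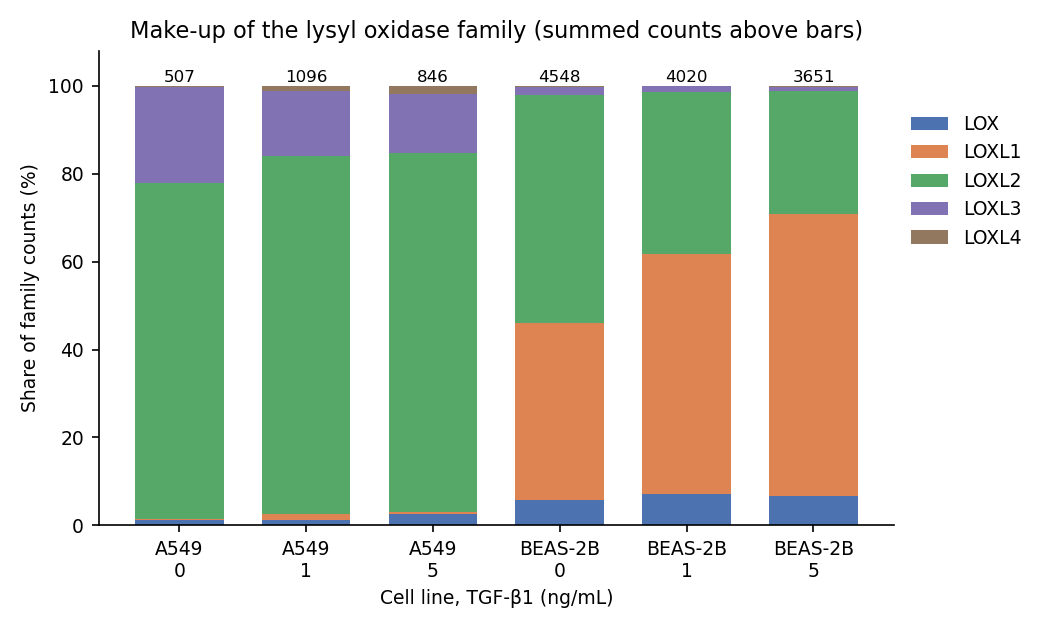
Share of the family's counts (%) held by each member in the 6 libraries, with the summed counts above the bars. LOXL2 holds 76.5% to 81.6% in A549, and in BEAS-2B the share of LOXL1 is 40.3% in the control group and 64.2% at 5 ng/mL. The entry named LOXL3, which cannot be told apart from HTRA2, holds 21.9% in the A549 control group and 13.5% at 5 ng/mL.

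LOX, the founding member, which cross-links fibrillar collagen and elastin, differed more between the cell lines than between doses of TGF-β1. Its counts were 6, 13 and 21 in A549 and 261, 285 and 240 in BEAS-2B at 0, 1 and 5 ng/mL, or scaled counts of 6.95, 8.93 and 19.1 against 291, 321 and 302. The control groups differed 41.9-fold (19.0 to 115), and at 5 ng/mL the lines differed 15.9-fold (10.1 to 26.1). Within BEAS-2B the 3 levels were not distinguishable at this depth, with ratios to control of 1.10 (0.928 to 1.31) and 1.04 (0.868 to 1.24). In A549 the ratio was 1.28 (0.456 to 4.12) at 1 ng/mL and 2.74 (1.07 to 8.30) at 5 ng/mL, still far under the minimum of the DEG criteria.

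LOXL3, a member known for its role in palate and cartilage development, cannot be read as a gene on its own in these counts. Its 3′ end on chromosome 2 faces that of HTRA2, a mitochondrial serine protease encoded on the opposite strand, and the GENCODE gene models on GRCh38 share 625 exon bases, 190 of them in the last 500 exon bases of LOXL3. LOXL3 had 111, 162, 114, 87, 56 and 36 counts in A549 at 0, 1 and 5 ng/mL and BEAS-2B at 0, 1 and 5 ng/mL. HTRA2 had 109, 156, 116, 88, 58 and 36 counts in the same order. The genes never differed by more than 6 counts or 3.70%. Whether strand was used in the counting is not given in the sources used here, so reads from LOXL3 and HTRA2 cannot be told apart.

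Such near-equal counts were uncommon among comparable neighbors, in a description made with this pair in view and not as a test. Of 295 pairs of protein-coding genes whose 3′ ends overlap by at least 500 exon bases on opposite strands, with at least 300 counts over the 6 libraries in either gene, 10 pairs (3.39%) had counts within 10% of each other in every library, LOXL3 with HTRA2 among them. These gene models are of GRCh38, whereas the reads were counted on hg19. DOK1, which overlaps LOXL3 on the other strand by 216 bases outside the last 500 exon bases, had 64, 153, 54, 273, 169 and 116 counts and followed another pattern.

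**Figure D4:**
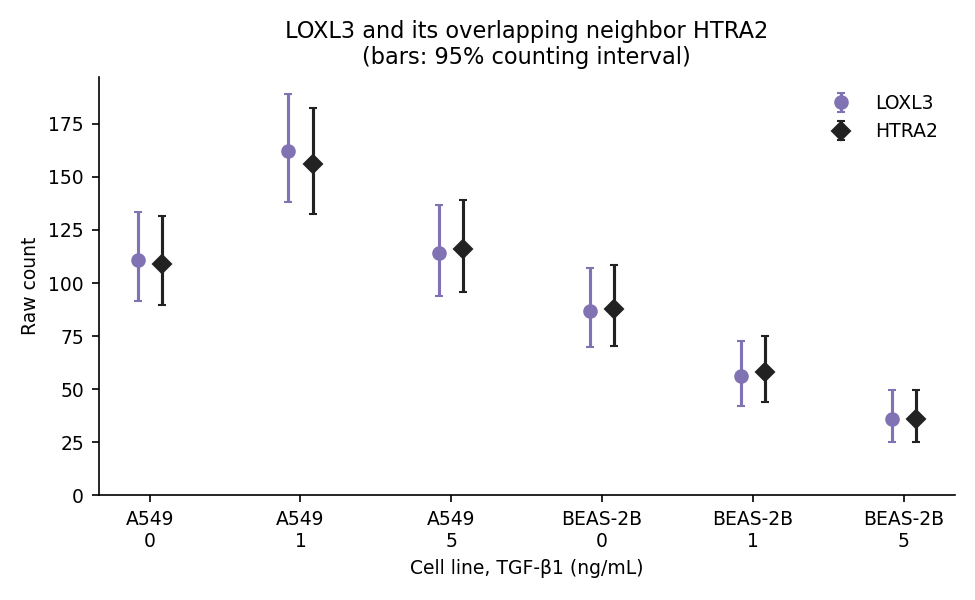
Raw counts of LOXL3 and HTRA2 in the 6 libraries, by cell line and TGF-β1 dose, with 95% counting intervals. In every library the counts of the genes lie within 6 of each other.

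With that limit, the entry named LOXL3 had scaled counts of 129, 111 and 103 in A549 and 97.0, 63.0 and 45.3 in BEAS-2B. In A549 the ratios to control, 0.865 (0.676 to 1.11) and 0.804 (0.614 to 1.05), were within counting error. In BEAS-2B they were 0.649 (0.456 to 0.919) and 0.467 (0.308 to 0.697). The latter is 2.14-fold lower but stayed under the ND minimum, so it was not a DEG. The value belongs to LOXL3, HTRA2 or both.

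LOXL4, the remaining member with scavenger receptor domains, was near the limit of detection. It had 1, 13 and 16 counts in A549 and 7, 1 and 10 counts in BEAS-2B at 0, 1 and 5 ng/mL. The ratio to control in A549 was 7.71 (1.16 to 328) and 12.5 (1.95 to 525), resting on 1 count in the control group. In BEAS-2B it was 0.144 (0.0032 to 1.12) and 1.61 (0.554 to 4.99), with no order over the doses.

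The exons of the other members overlap neighbors only outside their last 500 exon bases. LOX on chromosome 5 shares 138 bases with SRFBP1 on the opposite strand, which had 107 to 197 counts. LOXL1 on chromosome 15 shares 335 bases with the antisense gene LOXL1-AS1, whose counts were 0, 1 and 0 in A549 and 30, 18 and 21 in BEAS-2B. LOXL2 shares 120 bases on the same strand with ENTPD4, which had 128 to 355 counts and was 2.13-fold higher (1.73 to 2.63) in A549 at 5 ng/mL. None of these neighbors tracked its partner count for count as HTRA2 did.

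Counted over the family, 0 of the 2 members that reached the minimum in A549 were DEGs at either dose. The background there was 10.9% of entries upregulated and 12.6% downregulated at 1 ng/mL, and 16.1% and 17.1% at 5 ng/mL. In BEAS-2B at 1 ng/mL, 0 of 3 members were DEGs, beside 5.66% of entries upregulated and 9.13% downregulated. The median log2 FC of the 5 members was 0.45 and 1.33 in A549 at 1 and 5 ng/mL and -0.61 and 0.054 in BEAS-2B, beside medians over all entries reaching the minimum of 0.092, 0.11, 0.013 and 0.029. The A549 medians rest partly on members with under 25 counts. Over the 3 members reaching the minimum in BEAS-2B the medians were 0.14 and 0.054, so the sign at 1 ng/mL differed from that over all 5. In A549 only LOXL2 (0.45 and 0.48) and the entry named LOXL3 (-0.21 and -0.31) reached the minimum. Their medians of 0.12 and 0.083 are midpoints between opposite signs and describe neither entry. Between the control groups, LOX, LOXL1 and LOXL2 of the 4 members that reached the minimum were at least 2-fold higher in BEAS-2B, where 37% of all entries differed by that much in either direction.

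The proteins that activate and hold lysyl oxidases were then examined from lists of partner genes. BMP1, the protease that removes the propeptides of LOX, LOXL1 and fibrillar procollagen, was upregulated in all 4 comparisons and was the only 1 of 5 genes of its list to reach the minimum. Its scaled counts were 104, 495 and 594 in A549 and 257, 672 and 669 in BEAS-2B, or 5.70-fold (4.57 to 7.19) and 2.61-fold (2.23 to 3.06) over control at 5 ng/mL. PCOLCE, which enhances procollagen cleavage, had 11, 91 and 76 counts in A549 and 26, 47 and 31 in BEAS-2B, under the minimum. The related PCOLCE2, also under the minimum, had 65, 29 and 18 counts in A549, a ratio of 0.217 (0.121 to 0.370) at 5 ng/mL. BMP1 thus rose in both lines, while LOX and LOXL1 did not meet the criteria in either. In A549 their scaled counts lay under the minimum in every library, so neither was called there. The minimum applies to the higher library of a comparison, so a larger rise could have passed it. In BEAS-2B at 5 ng/mL, LOXL1 was at 1.44 times its control level (1.36 to 1.54) and LOX at 1.04 times (0.868 to 1.24).

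Of 8 matrix proteins that bind lysyl oxidases or their substrates, 3 were upregulated and 0 downregulated among the 3 reaching the minimum in A549 at 5 ng/mL. In BEAS-2B at 5 ng/mL, 2 were upregulated and 1 downregulated among 5. FN1, encoding fibronectin, rose 2.92-fold (2.83 to 3.005) in A549 and 15.6-fold (15.3 to 15.9) in BEAS-2B. THBS1, encoding the TGF-β-activating thrombospondin 1, rose 15.7-fold (12.0 to 21.1) and 2.82-fold (2.58 to 3.08). FBLN1 rose 2.50-fold (2.08 to 3.03) in A549. FBLN2, another fibulin, had 200, 36 and 26 counts in BEAS-2B and was at 0.147 times its control level (0.094 to 0.222) at 5 ng/mL.

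The summed counts of fibrillar and type IV collagen genes moved far more than that of the family, though not every chain did. Of 9 fibrillar collagen genes, 3 of the 3 reaching the minimum in A549 and 3 of 4 in BEAS-2B were upregulated at 5 ng/mL, and none was downregulated. Among all entries reaching it, 16.1% were upregulated in A549 and 7.33% in BEAS-2B. COL1A1 rose 20.3-fold (16.4 to 25.4) in A549 and 11.5-fold (11.1 to 12.0) in BEAS-2B, and COL5A1, whose chain regulates fibril diameter, rose 19.2-fold (16.8 to 22.1) and 7.99-fold (7.53 to 8.50). COL5A2 rose 4.23-fold (3.63 to 4.94) in A549. In BEAS-2B it was at 1.63 times its control level (1.41 to 1.88) and was not a DEG. There were 1.08, 10.7 and 10.4 fibrillar collagen reads per lysyl oxidase family read in A549 at 0, 1 and 5 ng/mL, and 0.868, 8.97 and 9.20 in BEAS-2B. COL1A1 and COL5A1 together gave most of these collagen reads. The family reads include the entry named LOXL3, which held 21.9% of them in the A549 control group. Of 6 type IV collagen genes, the substrates of LOXL2 in basement membrane, 3 of the 4 reaching the minimum in A549 and 3 of 3 in BEAS-2B were upregulated at 5 ng/mL. COL4A2 rose 9.23-fold (8.45 to 10.1) in A549 and 5.11-fold (4.79 to 5.47) in BEAS-2B, where LOXL2 was lower. COL4A5 reached the minimum in A549, was not a DEG, and was at 0.529 times its control level (0.392 to 0.709). Under the minimum, COL4A3 was at 5.55 times (3.02 to 11.2) in A549. COL4A6, also under it, was at 0.154 times (0.091 to 0.247) in A549 and 0.151 times (0.017 to 0.647) in BEAS-2B.

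**Figure D5:**
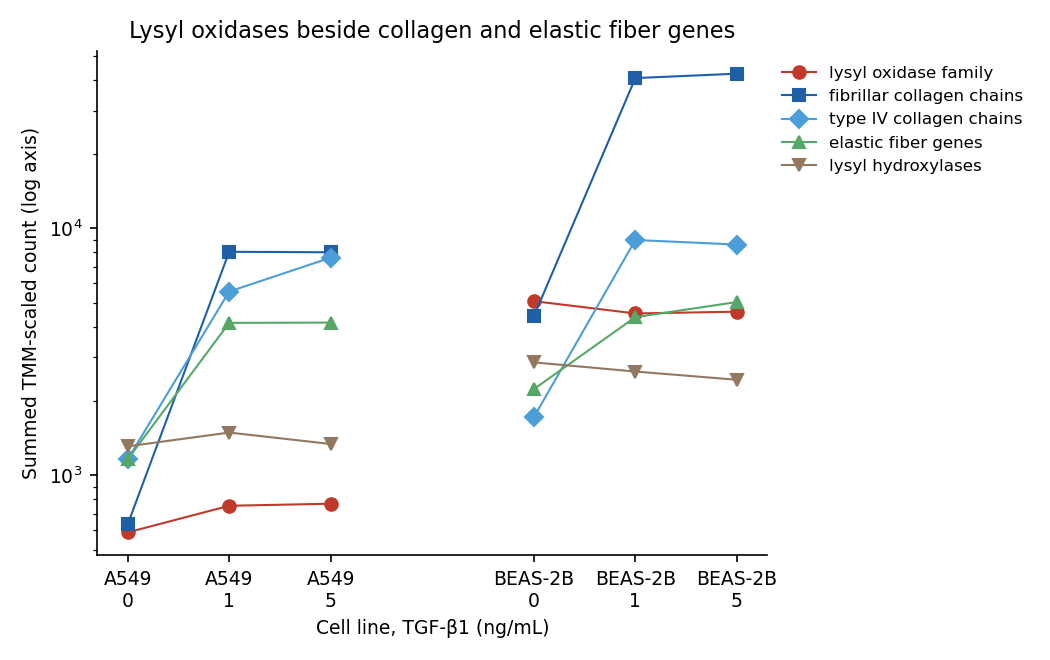
Summed TMM-scaled counts (log axis) of the lysyl oxidase family and of collagen, elastic fiber and lysyl hydroxylase genes, by cell line and TGF-β1 dose, with lines joining libraries of a line. From 0 to 5 ng/mL the fibrillar collagen sum goes from 633 to 8001 in A549 and from 4401 to 42291 in BEAS-2B, while the family sum goes from 587 to 768 and from 5073 to 4599.

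Elastin, the other main substrate, was barely counted. ELN had 2, 22 and 6 counts in A549 and 0, 1 and 0 in BEAS-2B, although LOXL1 was abundant in the latter. Microfibril and latent TGF-β-binding protein genes of the same 12-gene list were counted, and 3 of 4 reaching the minimum in A549 and 3 of 6 in BEAS-2B were upregulated at 5 ng/mL. LTBP3 rose 5.90-fold (5.34 to 6.53) in A549. LTBP2 rose 2.33-fold (1.85 to 2.96) in A549 and 6.89-fold (5.82 to 8.19) in BEAS-2B, and FBN1, encoding fibrillin-1, rose 2.06-fold (1.87 to 2.27) in BEAS-2B.

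Lysyl hydroxylases modify the same lysines inside the cell before lysyl oxidases act on them. In A549 at 5 ng/mL, PLOD1 rose 2.13-fold (1.87 to 2.43) and PLOD2, which hydroxylates the telopeptides, was 2.28-fold lower. None of the 3 was a DEG in BEAS-2B, where PLOD2 had scaled counts of 1988, 1201 and 1127. Among 8 copper-handling genes, ATOX1, the chaperone that passes copper to the secretory pathway, rose 5.44-fold (4.78 to 6.21) in A549 and had scaled counts of 641, 964 and 962 in BEAS-2B. ATP7A, the pump that loads copper onto secreted enzymes, had 22 to 72 counts throughout. The metallothionein MT1X rose in both lines, 8.01-fold (6.34 to 10.2) in A549 and 5.42-fold (4.17 to 7.13) in BEAS-2B at 5 ng/mL, and MT2A rose 5.52-fold (5.33 to 5.71) in A549. The other copper-dependent amine oxidases AOC1, AOC2 and AOC3 had at most 12 counts in any library.

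LOXL2 and LOXL3 are known to act with SNAI1, a repressor of E-cadherin. SNAI1 had 25, 6 and 14 counts in A549 and 7, 36 and 22 in BEAS-2B, and SNAI2 had 4, 15 and 8 and then 10, 56 and 48, all under the minimum. CDH1, encoding E-cadherin, had 640, 30 and 8 counts in A549 and was 36.0-fold lower at 1 ng/mL and 102-fold lower at 5 ng/mL. In BEAS-2B it had at most 2 counts, so no fold is given.

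The genes whose pattern over the 6 libraries was most like each member were taken by Pearson's r of ND values among 8158 other entries, as a description over 6 points in which the cell line contributes most of the spread. SV2A, SEMA3F and GNB1 were nearest to LOX, with r of 0.999 for SV2A. THY1, PHF20 and ENO1 were nearest to LOXL1, with r of 0.999 for THY1, a surface glycoprotein that had scaled counts of 4.63, 17.2 and 8.17 in A549 and 1294, 1394 and 1776 in BEAS-2B. RRM2, GAS6 and CYB5R3 were nearest to LOXL2. RRM2, a subunit of ribonucleotide reductase, had scaled counts of 346, 462 and 475 in A549 and 1879, 1197 and 908 in BEAS-2B. APH1B, RCN1 and RNASET2 were nearest to the entry named LOXL3, and HTRA2 itself fell just under the minimum, at a scaled count of 126 in its highest library. Between 288 and 852 entries had r over 0.9 with each of these 4 members, so high values were common.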

How the data were processed

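Messenger RNA was measured in 6 libraries of 2 cell lines, 1 library per condition. The deposited values are raw counts per gene entry. According to the submitters' processing notes the authors used Bowtie2, bedtools and the build hg19, and the study's methods name ExDEGA. Versions, strand use and annotation are not given in the sources used here. Library totals ran from 4120624 to 7841350 counts, and 3 counts were taken as the detection floor.

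Counts were scaled with TMM (edgeR 4.0.16, R 4.3.3) over the 6 libraries. FC was (scaled count + 1) over (scaled count + 1), printed ratios are without this pseudocount, and Clopper-Pearson intervals came from scipy 1.17.1. The limits, FC of at least 2 and ND of at least 7, follow the study. With 1 library per group no test was made. The code was tested on simulated data. Alternatives were DESeq2 1.42.0 size factors, total counts, upper quartile factors, TMM within a line, a filter at 10 counts, pseudocounts 0.1 and 5, ND minimum 6 or 8, CPM-based ND, FC limit 1.5 or 3, and thinning. Added after seeing the data were removal of the GC trend, scaling to 14 proteasome genes, and the family sum without LOXL3.

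All members were named, and from each list up to 4 DEGs at 5 ng/mL with the highest scaled counts, overlapping neighbors, and the 3 genes most like each member. Others were named after their values were seen. Members and lists were chosen with earlier results of these data known, and the study had picked several of the collagen and matrix genes from these libraries. Of 9848 entries with mean ND of at least 5, 9419 had a GC value.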

Additional observations from a re-analysis of the deposited data

Results flagged for a closer look

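LOXL2 moved in opposite directions in the 2 cell lines at both doses. At 5 ng/mL its log2 ratio to control was 0.48 in A549 and -1.03 in BEAS-2B, a difference of -1.51 (95% counting interval -1.72 to -1.30), and the difference was not tested because each condition had 1 library. At 1 ng/mL the difference was -1.11 (-1.31 to -0.915). With the trend over GC content removed, the log2 FC at 5 ng/mL was 0 in A549 and -1.09 in BEAS-2B.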

How the results depend on the processing

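With 1 library per condition, leaving out a replicate was not possible. No paired analysis was possible because the labels carry no replicate numbers and each group is 1 library. Of 435 values of single members under the alternatives, 419 stayed within the counting interval of the reported value and 16 moved outside it, and no value that exceeded counting error reversed. That interval is wide for members with few counts, as for LOXL1 in A549 at 1 ng/mL (log2 0.45 to 8.55), so their values could hardly move outside it. LOXL2 in A549 at 5 ng/mL, at 0 without the GC trend, is among the moved values and not counted as reversed. Scaling by total counts shifted the median of all entries by -0.19 and -0.25 in A549 and by -0.14 and -0.15 in BEAS-2B at 1 and 5 ng/mL. The log2 ratio of the family sum then became 0.19 and 0.18 in A549 and -0.29 and -0.27 in BEAS-2B, beside 0.36, 0.39, -0.17 and -0.14 as reported. Upper quartile factors gave -0.093 and -0.075 in BEAS-2B. Without LOXL3 the sums were 0.48 and 0.53 in A549 and -0.16 and -0.13 in BEAS-2B. In BEAS-2B at 5 ng/mL the number of members meeting the DEG criteria, 1 as reported, was 0 with upper quartile factors, 2 with an ND minimum of 6 and 0 with an FC limit of 3. At 1 ng/mL it was 1 with an FC limit of 1.5 instead of 0. Depth limits LOX and LOXL1 in A549 and LOXL4 in both lines, with 1 to 21 counts.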
